A study of Mus musculus with 9 samples.

Results

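The insulin-like growth factor (IGF) family was described here as 9 genes, each present once by symbol in a table of 13336 genes: the ligand gene Igf1, the receptor genes Igf1r and Igf2r, and the 6 binding protein genes Igfbp2 to Igfbp7. They were compared in mouse tracheal gland cells grown in culture and sorted as lineage-tagged myoepithelial cells, the contractile basal-type cells that wrap airway glands. All mice carried a tamoxifen-inducible Cre under Acta2, the smooth muscle actin gene, and received tamoxifen on 5 days before harvest. The 5 Lef1KI libraries came from ACTA2-CreERT2:Lef-1KI+/+ mice, which carry a knock-in allele of the Wnt effector gene Lef1, and were sorted as GFP-negative cells. The 4 WT libraries came from ACTA2-CreERT2:ROSA-TG mice and were sorted as GFP-positive cells, so gate and genotype cannot be told apart. Each library was 1 pool of 3 to 5 mice, and every culture held Y-27632 at 10 µM and DMH-1, A83-01 and the GSK3 inhibitor CHIR 99021 at 1 µM each. The labels name neither the age nor the genetic background of the mice.

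IGF1 and IGF2 are secreted ligands that act through the IGF1 receptor, a tyrosine kinase that feeds the PI3K-AKT and MAPK pathways and promotes growth and survival. IGF2R, the mannose 6-phosphate receptor, takes up and clears IGF2 and sorts lysosomal enzymes. IGF-binding proteins hold the ligands outside the cell, prolong their life or keep them from the receptor, and are cut by proteases that release the ligand.

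Levels are TPM, a gene's share of all transcripts corrected for its length. Differences are taken between mean log2(TPM + 1) values, with WT subtracted from Lef1KI, a scale on which genes near 0 TPM change less than in TPM. Libraries are called by the letter of their column, and values always follow the order A, B, C, D, E for Lef1KI and A, B, D, E for WT. Lef1 itself was at 139.33 to 311.51 TPM in the Lef1KI libraries and 0.38 to 0.55 TPM in the WT libraries. Between 11465 and 12135 genes reached 1 TPM in a library, and read depth is unknown because TPM keeps no counts. The measured basal and myoepithelial markers summed to between 20636 and 24697 TPM in Lef1KI and between 15862 and 22886 TPM in WT, with none of 10 past the threshold. Dst has 3 gene IDs in the table, of which the last in row order was counted. Another, named after its values were seen, rose from 30.6 to 53.2 TPM (limma adjusted p 0.0199). Cnn1 and Oxtr, contractile markers of that list, were not analysed here.

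The ligand gene and all 6 binding protein genes were higher in Lef1KI, while neither receptor gene passed the test. By limma over the whole table, with Benjamini-Hochberg adjusted p under 0.05 as the threshold, 7 of the 9 genes rose and 0 fell, beside 7.97% of all genes that changed (6.73% rose and 1.24% fell, or 4.54% and 2.49% with median centring and 4.38% and 2.56% with trimmed-mean scaling). In 6 of the 9 genes every Lef1KI library lay above every WT library, which held for 10.0% of all genes, and in 0 every one lay below, which held for 1.89%. The members were chosen with earlier results of these data known, so these shares are no test of the family. The median log2 difference of the 9 genes was 1.45, and that of all genes was 0.14. With each library centred on its median, these medians were 1.29 and −0.018, and 6 of the 9 genes rose. Without Lef1KI C or without WT B, 4 of the 9 rose. In bulk RNA, more cells of a type that expresses a gene and more RNA of it per cell cannot be told apart.

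**Figure D1:**
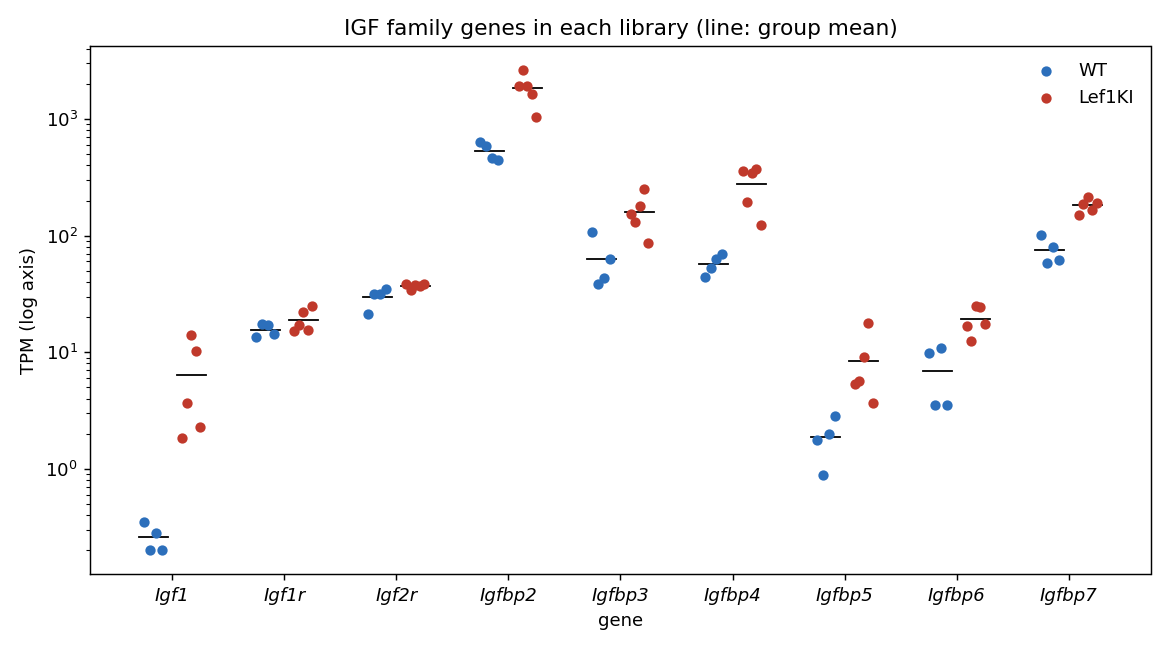
TPM of each gene of the family in each library, on a log axis, with WT in blue, Lef1KI in red and a line at each group mean. Igfbp2 is the highest gene in every library, Igf1 is under 0.4 TPM in all WT libraries, and the points of the receptor genes overlap between groups.

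Igf1 went from near absence to a low and uneven level. In WT it was at 0.35, 0.20, 0.20 and 0.28 TPM, a mean of 0.258 ± 0.0723 (SD, n = 4). In Lef1KI it was at 1.85, 3.68, 14.02, 10.29 and 2.28 TPM, a mean of 6.42 ± 5.44 (SD, n = 5). All 5 Lef1KI libraries lay above all WT libraries, with C and D well above A, B and E. The log2 difference was 2.24 (SE 0.451, limma adjusted p 0.012), which ranked 66 among the rises of all genes. The exact permutation p over the 126 ways to draw 5 of 9 libraries was 0.0159, the smallest the design allows. The highest Lef1KI library had 7.58 times the lowest, and 99.4% of all genes had a smaller SD of log2 values among the Lef1KI libraries. Igf1 is in the deposited table through its WT values, since its Lef1KI mean was 2.39 SD and the authors' filter asked for 3 SD in at least 1 group. With a pseudocount of 0.1 TPM in place of 1 its difference was 3.77. The call held whichever library was left out.

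The cores that LEF/TCF factors bind, CTTTGA and CTTTGT, were looked for on both strands of RefSeq promoter windows (GRCm38.p6, 250 bases before to 50 after the start site). Igf1 was the only family gene past the threshold whose window held one. Its start lies on chromosome 10, where GENCODE M21 places the gene from 87858265 to 87937042 on the plus strand. The cores begin 186 and 116 bases upstream of the RefSeq start, in a stretch that overlaps annotated exons of GENCODE M21. They are shown with 10 bases on either side, the core in capitals:
Igf1 chr10:87860915-87860940 (plus strand): gcgtggtggtCTTTGAaacatagctc
Igf1 chr10:87860985-87861010 (plus strand): cgcctgctggCTTTGTactctgaggc
A core was held by 31.2% of the 32851 RefSeq windows, and 34.5% of 27025 genes had at least 1 window with one. Of the 9 family members 2 did, Igf1 and Igf1r. The Igf1 window was 52.3% G and C with 6 CG dinucleotides, near the medians of 52.7% and 7 over all windows.

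The other ligand gene, Igf2, is outside the 9 genes and was measured in the same table. Igf2 is imprinted and is known as the fetal growth factor of the family. Igf2 stood at 17.28, 19.76, 26.15, 21.03 and 16.15 TPM in Lef1KI, and WT had 9.49, 5.35, 7.02 and 4.20 TPM. Every Lef1KI library was above every WT library, and 49.2% of all genes had a smaller SD of log2 values within Lef1KI. The log2 difference was 1.52 (SE 0.22, limma adjusted p 0.00246). Igf2 therefore exceeded Igf1 in each of the 9 libraries. Igf1 made up 4.05% ± 1.52 of the Igf1 and Igf2 TPM in WT (SD, n = 4) and 21.1% ± 11.9 in Lef1KI (SD, n = 5), with the highest share, 34.9%, in Lef1KI C.

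Igf1r, the signalling receptor gene, was at similar levels in both groups. Its values were 15.29, 17.07, 22.33, 15.45 and 24.86 TPM in Lef1KI and 13.54, 17.36, 14.23 and 17.04 TPM in WT. The groups overlapped, and only Lef1KI C and E lay above the highest WT library. The log2 difference was 0.26 (95% interval −0.13 to 0.64, limma adjusted p 0.389, exact permutation p 0.19). The interval leaves room for a rise of up to 0.64 and does not show equal levels. The gene lies on chromosome 7 from 67952827 to 68233668 (mm10). Its RefSeq window had a core 89 bases upstream and a second within the first 50 bases after the start, and was 76% G and C with 48 CG dinucleotides. The 250 upstream bases are shown, with the core in capitals, as the window of a member that held the motif and did not pass the test:
Igf1r chr7:67952007-67952256 (plus strand): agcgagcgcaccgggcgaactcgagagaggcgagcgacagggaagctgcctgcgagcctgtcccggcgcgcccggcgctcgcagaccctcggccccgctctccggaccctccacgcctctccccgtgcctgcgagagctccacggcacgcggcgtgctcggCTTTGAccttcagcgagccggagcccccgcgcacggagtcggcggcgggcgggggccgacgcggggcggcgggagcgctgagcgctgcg

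Igf2r was the steadiest of the 9 genes in Lef1KI, where 2.81% of all genes had a smaller SD of log2 values. Lef1KI values were 38.60, 34.13, 37.83, 36.73 and 38.63 TPM, against 21.19, 31.38, 34.50 and 31.82 TPM in WT. The lowest Lef1KI value fell just below the highest WT value, so the groups overlapped, and WT A was the low library. The log2 difference was 0.33 (95% interval 0.017 to 0.65, unadjusted p 0.0406, limma adjusted p 0.191), and 0.16 with trimmed-mean scaling. Igf2r lies on chromosome 17 from 12682406 to 12769664 on the minus strand and overlaps Airn, an antisense RNA gene at 0.992 ± 0.345 TPM in Lef1KI against 1.56 ± 0.659 TPM in WT (SD, n = 5 and 4). The kit was stranded, and no source used here says whether the counting used strand.

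**Figure D2:**
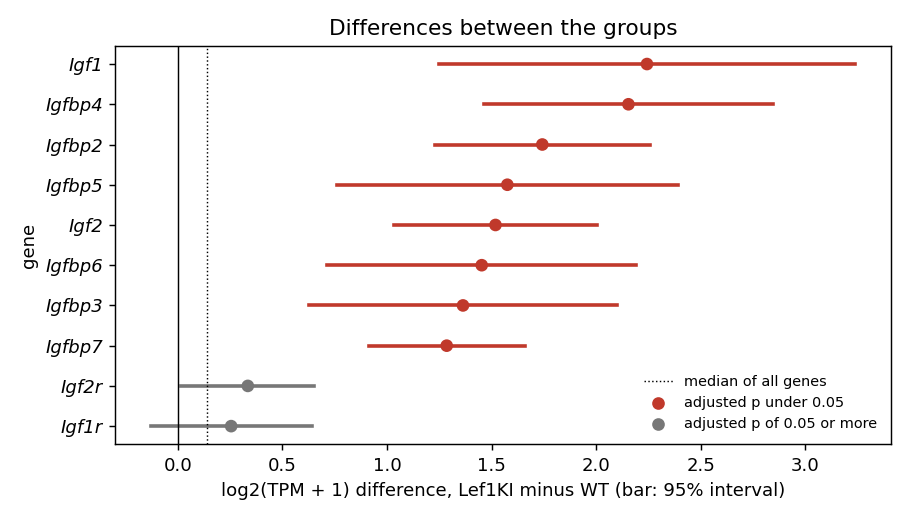
Log2(TPM + 1) difference, Lef1KI minus WT, for the 9 genes and Igf2, with 95% intervals from limma, in red where the adjusted p was under 0.05. The dotted line marks the median of all genes, 0.14, and both receptor genes have intervals that reach or nearly reach 0.

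Igfbp2, a binding protein with affinity for both ligands, was the most abundant gene of the family in each of the 9 libraries. It reached 1929, 2637, 1923, 1634 and 1044 TPM in Lef1KI, while WT had 630.19, 582.71, 444.55 and 462.18 TPM. The groups were well apart, with Lef1KI B highest and Lef1KI E lowest of the Lef1KI libraries. The means were 1833 ± 576 against 529.9 ± 90.8 TPM (SD, n = 5 and 4), a ratio of 3.46. The log2 difference was 1.74 (SE 0.232, limma adjusted p 0.00161), a call that held whichever library was left out. Igfbp2 (chromosome 1 from 72824503 to 72852474, plus strand) and Igfbp5 (72857932 to 72874884, minus strand) are neighbours whose 3′ ends face each other, 5457 bases apart with no annotated gene between them.

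Igfbp4 had the second largest rise of the family. PAPP-A, a metalloprotease, is known to cut IGFBP4 and release the ligand. Levels were 360.91, 195.41, 341.20, 372.07 and 122.80 TPM in Lef1KI, while WT had 44.49, 53.03, 69.83 and 62.97 TPM. No value overlapped, and Lef1KI B and E were lower than the other Lef1KI libraries. The means were 278 ± 113 and 57.6 ± 11.1 TPM (SD, n = 5 and 4), a ratio of 4.84, with a log2 difference of 2.15 (SE 0.313, limma adjusted p 0.00248). Igfbp4 lies on chromosome 11 from 99041244 to 99054392 on the plus strand, and its RefSeq window was 71.3% G and C with 27 CG dinucleotides. Its 250 upstream bases are shown as the window of a member that rose and held neither core, so none is in capitals:
Igfbp4 chr11:99040994-99041243 (plus strand): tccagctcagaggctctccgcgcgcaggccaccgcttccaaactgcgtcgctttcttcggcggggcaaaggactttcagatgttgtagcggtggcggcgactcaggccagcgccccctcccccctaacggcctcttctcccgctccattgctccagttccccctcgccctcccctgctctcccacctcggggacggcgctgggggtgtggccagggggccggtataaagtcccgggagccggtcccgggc

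Igfbp7, which binds IGFs weakly and is found in vessel walls and matrix, rose by the least of the 6. Its Lef1KI libraries held 150.40, 186.77, 214.14, 166.33 and 188.94 TPM, and WT had 100.65, 58.10, 61.51 and 80.03 TPM. The groups did not overlap, and WT A was the nearest WT library to them. The log2 difference was 1.29 (SE 0.169, limma adjusted p 0.00154), again whichever library was left out. The gene (chromosome 5 from 77349240 to 77408041, minus strand) overlaps the end of Polr2b on the other strand, an RNA polymerase subunit gene at 31.0 ± 3.46 TPM in Lef1KI against 29.1 ± 0.855 TPM in WT.

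Igfbp3, the main carrier of IGFs in serum, gave the least firm call. Igfbp3 gave 152.28, 131.89, 177.87, 251.19 and 86.35 TPM in Lef1KI, while WT had 106.55, 38.67, 63.01 and 43.26 TPM. The groups overlapped, because WT A was above Lef1KI E. The log2 difference was 1.36 (SE 0.334, limma adjusted p 0.0313, exact permutation p 0.0317). It passed in 3 of the 9 fits without a library and missed the threshold with median centring, where the difference was 1.204 (adjusted p 0.0678), and with trimmed-mean scaling, at 1.19 (0.0698). It also missed it without Lef1KI B, C or D (differences of 1.41, 1.30 and 1.18) and without WT B, E or D (1.17, 1.23 and 1.403). Igfbp3 lies on chromosome 11 from 7206086 to 7213923 on the minus strand.

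Igfbp5 and Igfbp6 were the lowest of the 6 genes. Igfbp5, which binds matrix as well as IGFs, had 5.37, 5.70, 9.14, 17.84 and 3.70 TPM in Lef1KI and 1.75, 0.88, 2.81 and 1.99 TPM in WT. Its groups did not overlap, and Lef1KI D stood highest. The log2 difference of Igfbp5 was 1.58 (SE 0.369, limma adjusted p 0.0252), and it passed in 5 of the 9 fits without a library. The call was lost without Lef1KI C (1.5), WT A (1.57), WT B (1.39) or WT E (1.61). Igfbp6, which prefers IGF2, had 16.78, 12.46, 24.77, 24.56 and 17.38 TPM in Lef1KI and 9.83, 3.55, 3.52 and 10.82 TPM in WT. WT fell into a higher pair (A and E) and a lower pair (B and D), all below the lowest Lef1KI library. Its log2 difference was 1.45 (SE 0.335, limma adjusted p 0.0235), and it passed in 5 of the 9 such fits, not without Lef1KI C (1.35), Lef1KI D (1.36), WT B (1.23) or WT D (1.23). Igfbp6 is on chromosome 15 from 102144362 to 102149511.

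**Figure D3:**
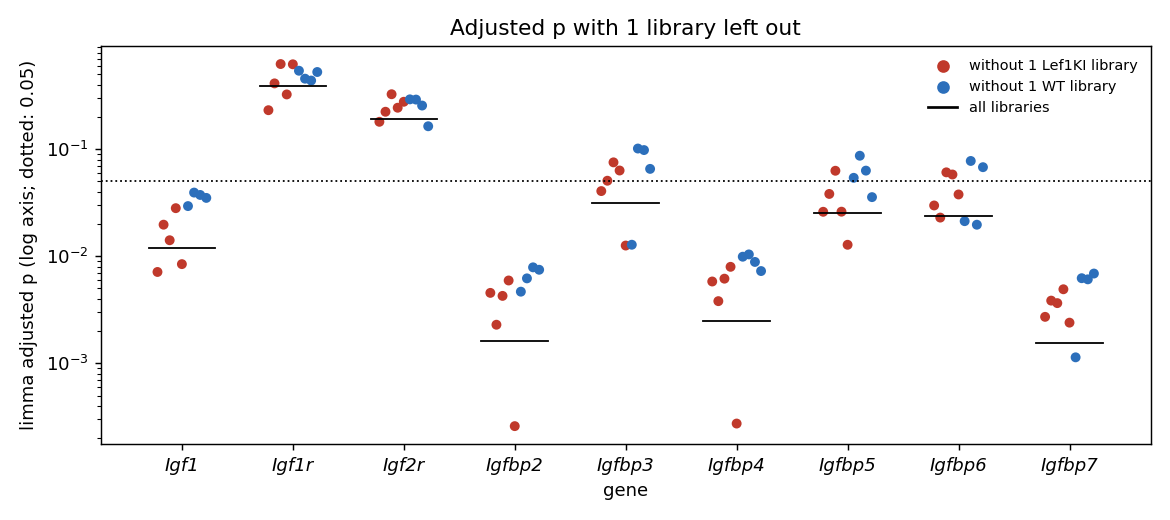
Limma adjusted p of each gene, on a log axis, with all libraries (line) and with 1 library left out (points, red for a Lef1KI and blue for a WT library). All points of Igf1, Igfbp2, Igfbp4 and Igfbp7 lie below the dotted line at 0.05, those of Igfbp3, Igfbp5 and Igfbp6 lie on both sides, and those of Igf1r and Igf2r lie above it.

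The order of the genes was much alike in both groups. In WT the mean level fell from Igfbp2 through Igfbp7 (75.1 TPM), Igfbp3 (62.9), Igfbp4 (57.6), Igf2r (29.7), Igf1r (15.5), Igfbp6 (6.93) and Igfbp5 (1.86) to Igf1. The ranges of Igfbp7, Igfbp3 and Igfbp4 overlapped as neighbours in this order, and those of the other neighbours did not. In Lef1KI Igfbp4 stood second and the order was otherwise Igfbp7 (181 TPM), Igfbp3 (159.9), Igf2r (37.2), Igfbp6 (19.2), Igf1r (19.0), Igfbp5 (8.35) and Igf1 (6.42). There the ranges overlapped between Igfbp4, Igfbp7 and Igfbp3 and again between Igfbp6, Igf1r, Igfbp5 and Igf1, so those places are not settled by the spread.

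The binding protein genes together were higher in Lef1KI, with a like share of Igfbp2 in both groups. Their TPM summed to 2615, 3169, 2690.2, 2466 and 1463 in Lef1KI and to 893, 737, 645 and 661 in WT. Even Lef1KI E, the lowest, was above the highest WT library, and the ratio of the group means was 3.38. Igfbp2 alone made up 73.2% ± 6.22 of the sum in Lef1KI and 72.1% ± 4.70 in WT (SD, n = 5 and 4), and without it the ratio was 3.17. The share of Igfbp4 was 11.2% ± 3.78 against 8.13% ± 2.58, and that of Igfbp7 was 7.85% ± 2.96 against 10.2% ± 1.88. These shares overlapped between the groups. For each TPM of Igf1 and Igf2 there were 99.4 ± 33.7 TPM of binding protein genes in Lef1KI and 115 ± 29.6 in WT, from 67.0 to 137 and from 89.4 to 148, which also overlap.

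**Figure D4:**
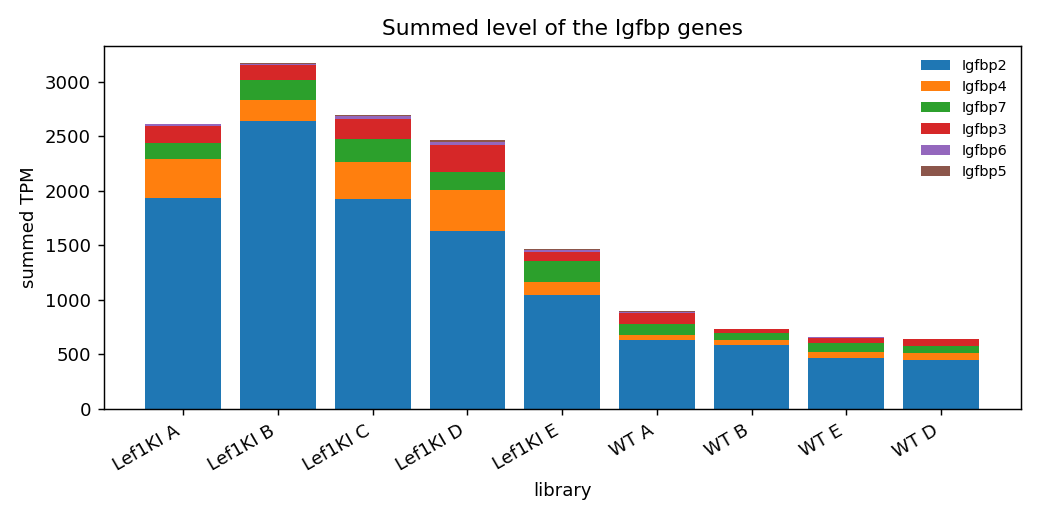
Summed TPM of the 6 Igfbp genes in each library, stacked by gene. The Lef1KI bars stand between 1463 and 3169 TPM, the WT bars between 645 and 893 TPM, and Igfbp2 is the largest part of every bar.

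Fibroblast and endothelial markers were higher along with these genes. Of 16 measured fibroblast markers 14 rose, beside 6.73% of all genes, and all 16 had positive differences (median 1.97). Their summed level was 571 to 1499 TPM in Lef1KI and 156 to 278 TPM in WT, and none of the measured markers of any list was at 0 throughout a group. Of the called fibroblast markers, Fn1 passed under neither scaling (0.80 and 0.78, limma adjusted p 0.062 and 0.067). Among the fits without a library it passed only without Lef1KI A (0.98), Lef1KI B (1.04) or WT B (1.16). Of 10 endothelial markers 6 rose (37.0 to 112 against 19.9 to 29.9 TPM summed), while of 5 leukocyte markers 2 rose, Lyz2 and, under neither scaling, Coro1a (0.29 and 0.28, adjusted p 0.174 and 0.189). The leukocyte sum ran the other way, at 58.6 to 83.6 TPM in Lef1KI B to E and 244 in A, against 111 to 259.6 TPM in WT, and most of it was Cd68. These marker genes were named after their values were seen, and the call for Coro1a was lost on leaving out WT B (0.45) or WT E (0.39). The leukocyte marker Ptprc was not analysed here. None of 4 pericyte and smooth muscle, 2 chondrocyte or 3 Schwann and neural markers passed. Among Lef1KI libraries the fibroblast sum was 1499 in C, 1190 in D, 1026 in A, 720 in B and 571 in E. The largest values of Igf1 and Igfbp6 were in C and D, as were those of Igfbp3 and Igfbp5 in D and C, and E held the lowest Lef1KI value of 4 of the 6 binding protein genes. Igfbp2 did not follow that order, with its highest value in B, nor did Igfbp7, whose second highest value was in E. Igfbp4 followed it in part, at 372 TPM in D, 361 in A and 341 in C. Lef1KI A had the third fibroblast sum and the lowest Igf1. In WT the library with the lowest fibroblast sum, A (156 TPM), had the highest Igf1, Igfbp2, Igfbp3 and Igfbp7 of its group. Igfbp4 ran the other way, lowest in WT A (44.49 TPM) and highest in WT D (69.83 TPM), the library with the highest fibroblast sum (278 TPM). Igfbp5 was also highest in WT D (2.81 TPM) but lowest in WT B (0.88 TPM), and Igfbp6 was highest in WT E (10.82 TPM). The part of fibroblasts or endothelial cells in these differences was not tested.

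**Figure D5:**
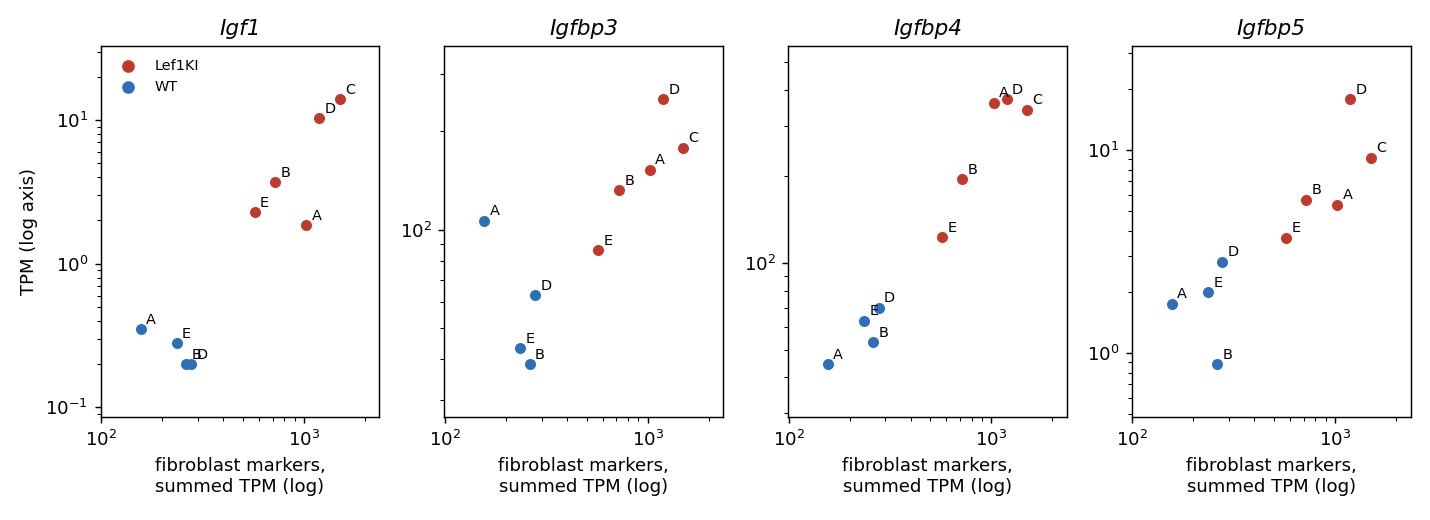
TPM of Igf1, Igfbp3, Igfbp4 and Igfbp5 against the summed TPM of 16 fibroblast markers in each library, both on log axes, with letters naming the libraries. The Lef1KI libraries have both the higher marker sums (571 to 1499 TPM) and the higher gene levels, except for Igfbp3, where WT A lies above Lef1KI E. The other members are not plotted, among them Igfbp2 and Igfbp7, which did not follow the order of the marker sums within Lef1KI.

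Some genes followed the family members closely over the 9 libraries. Likeness was the root-mean-square distance between log2 values, each gene centred on its own mean, and small distances are partly the group difference itself. For Igf1 the nearest were the eosinophil chemokine gene Ccl11 (distance 0.32), the selenoprotein P gene Sepp1 (0.35) and Slfn5 (0.36). Igfbp4 had the closest companions: the serpin gene Serpina3n (0.097), Ism1 (0.12) and the complement gene C3 (0.15). For Igfbp7 they were the protease receptor gene F2rl1 (0.16), the calcium channel subunit gene Cacna2d1 (0.20) and Lhfp (0.22). Igfbp2 was nearest to Fam78b (0.27) and Serpina3h (0.27); reads could be split among the Serpina3 paralogs. The elastin gene Eln was second nearest to both Igfbp3 (0.29, after Fez1, 0.29) and Igfbp5 (0.32, after Adamts15, 0.31), and the growth factor gene Pgf (0.33) came next for Igfbp5. The nearest to Igfbp6 were the cholesterol 25-hydroxylase gene Ch25h (0.31), the basement membrane gene Nid1 (0.33) and Gng11 (0.36).

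Upstream of Igf1, growth hormone acts through its receptor and JAK2. Of 7 measured genes of this input 2 rose and 0 fell, which is 28.6% beside 7.97% of all genes (median log2 difference 0.30). The receptor gene Ghr had 27.22, 19.90, 29.67, 29.76 and 13.34 TPM in Lef1KI and 8.13, 10.98, 10.89 and 9.18 TPM in WT. No Ghr value overlapped, though Lef1KI E came near to WT. Its log2 difference was 1.16 (SE 0.232, limma adjusted p 0.0115), and the kinase gene Jak2 rose by 0.84 (adjusted p 0.0181, lost without WT B, at 0.85, or WT E, at 0.86). Stat5a and Stat5b, the transcription factor genes of this route, had differences of −0.10 and 0.11 and did not pass, with that of Stat5b below 0 under both scalings.

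Among 12 measured proteases of binding proteins and their regulators, 3 rose and 1 fell, which is 33.3% beside 7.97% of all genes (median log2 difference 0.24). Adamts1, a metalloprotease gene, had 71.1 ± 9.70 TPM in WT and 130.4 ± 23.6 in Lef1KI (a rise of 0.86 on the log2 scale, limma adjusted p 0.00526). The stromelysin gene Mmp3 rose by 1.58 (adjusted p 0.0291, lost without Lef1KI C, Lef1KI D or WT E, at 1.43, 1.61 and 1.69) and Stc1, an inhibitor of PAPP-A, by 0.66 from under 1 TPM (0.0335, held only without Lef1KI A or B, in differences of 0.56 to 0.77 over the 9 fits without a library, and under neither scaling nor the 1 TPM filter). Plat, the tissue plasminogen activator gene, fell from 15.04 ± 4.59 to 6.80 ± 1.72 TPM, a change of −1.02 on the log2 scale (limma adjusted p 0.018, lost without WT E, at −0.97). Pappa, the PAPP-A gene, chosen after its values were seen, stood at 7.12 ± 2.41 TPM in Lef1KI against 12.9 ± 6.68 TPM in WT and did not pass (limma adjusted p 0.323).

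Of 9 measured genes for other proteins with an IGFBP domain, 2 rose and 0 fell, which is 22.2% beside 7.97% of all genes. Nov, a matricellular protein gene, had 6.34, 5.97, 12.10, 7.45 and 6.25 TPM in Lef1KI and, well below, 1.88, 1.10, 2.38 and 1.85 TPM in WT (log2 difference 1.60, limma adjusted p 0.00181). The serine protease gene Htra3 rose by 1.01 (adjusted p 0.0449), which held only without Lef1KI B or E, in differences of 0.84 to 1.196 over the 9 fits without a library, and was missed under both scalings, the 1 TPM filter and no intensity trend. Cyr61 and Ctgf, relatives of Nov chosen after their values were seen, had differences of 0.044 (below 0 under both scalings) and −0.062 and did not pass.

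Below the receptor, 0 of 38 measured signalling genes passed limma's threshold, beside 7.97% of all genes. At an unadjusted p under 0.05 there were 10, 8 higher and 2 lower, and the share of all genes at that level is not given here. The median log2 difference was 0.16, against 0.14 for all genes. Those that passed without Lef1KI D included Ddit4 (0.72) and Irs1 (−0.53), without Lef1KI A 2 passed, Akt1 (0.75) and Pik3cd (0.56), and under each scaling Irs1 did (−0.60 and −0.62), all named after their values were seen. With all libraries the insulin receptor gene Insr and the adaptor genes Irs1 and Irs2 stood at mean levels of 10.1, 1.53 and 44.8 TPM in Lef1KI and 7.49, 2.44 and 32.4 in WT (limma adjusted p 0.216, 0.0813 and 0.245). RNA levels do not measure the activity of the pathway.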

How the data were processed

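RNA of 9 libraries was measured by stranded TruSeq mRNA sequencing, per the labels' protocols. RSEM and mm10 are named in the submitters' processing notes; aligner, versions and annotation: not given in the sources used here. Values deposited by the authors are log2(TPM + 1), with group means and SDs in log2 units. From the values, 100% of those below 50 TPM are whole hundredths of a TPM (tolerance 0.01 of a hundredth), libraries sum to 99.6% to 99.84% of the full TPM scale, and all 13336 genes have a mean of at least 3 SD in at least 1 group. That filter favours even genes. TPM keeps no depth, so the spread between libraries is the error, and p-values measure that spread between pools of mice. No pair of libraries shared more than 92 equal values.

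Groups were fitted with limma 3.58.1 (intensity trend, group as the only term) in R 4.3.3, two-sided, with Benjamini-Hochberg adjustment over all genes, and checked on simulated data. Exact permutation tests (scipy 1.17.1) used differences of log2 means. Columns were matched to groups by name; letters could not be tied to replicate numbers. Positions come from GENCODE M21 on mm10 (13280 gene IDs found) and promoter windows from RefSeq (GRCm38.p6; all 9 genes matched). Members and lists were chosen with earlier results of these data known. Named genes are the 9 members, Lef1, up to 4 called genes per direction and pathway list, and the 3 nearest genes of each called member with an absolute log2 difference of at least 1. Some genes that this rule names are not reported here. Alternatives were 2 scalings (median, trimmed mean with 20% off each end), the variance prior (no trend, robust), a pseudocount of 0.1, a filter at a group mean of 1 TPM, and leaving out each library. Count models do not apply to TPM.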

Additional observations from a re-analysis of the deposited data

Results flagged for a closer look

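Among 44 groups of values (22 genes in each group of libraries), 3 had a library far from the others, where chance flags about 1 in 20. None of the 9 family genes was among them. For Mmp3, WT A had 43.8 TPM against 134 to 161 TPM in the other WT libraries, a gap of 0.859 of the range of log2 values. For Sod2, a mitochondrial superoxide dismutase gene, Lef1KI C had 53.4 TPM against 37.1 to 40.04 TPM (0.793 of the range). For Jak2, Lef1KI C had 26.1 TPM against 15.2 to 17.8 TPM (0.714 of the range).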

How the results depend on the processing

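The number of family genes past the threshold was 7 with all libraries, 4 to 7 with 1 library left out, 6 under each scaling and 7 under the other 4 settings. Among all genes, 1063 changed, 628 to 1686 with 1 library left out (1686 without Lef1KI A, 643 without WT B and 628 without WT E). Leaving out libraries gave differences of 1.17 to 1.65 for Igfbp3, 1.28 to 1.78 for Igfbp5 and 1.23 to 1.69 for Igfbp6, each losing its call in some fits. Igfbp3 also lost it with median centring (1.204) and trimmed-mean scaling (1.19). The cause was not tested. Igf1, Igfbp2, Igfbp4 and Igfbp7 kept direction and call in all 15 alternative fits, and no called difference of a named gene changed sign. Among named genes without a call, Cyr61, Stat5b and Polr2b turned negative under both scalings, and Cyr61, Ctgf, Stat5a and M6pr changed sign when 1 library was left out. With 1 library left out, the mean Igfbp sum was 2308 to 2735 TPM in Lef1KI and 681 to 764 TPM in WT. The column letters cannot be tied to the labels' replicate numbers, so letters were not taken as pairs. Deviations of same-letter libraries correlated at −0.259 (A), 0.0199 (B), 0.258 (D) and −0.148 (E) over genes, and those of different letters at −0.21 to 0.224. These values cannot decide on pairing, because deviations from the mean of a small group are tied to each other. A fit with the letter as a replicate block, added after the data were seen and leaving Lef1KI C without a partner, gave 484 changed genes and 5 family genes, with Igfbp3 (1.304) and Igfbp6 (1.354) past the threshold no longer. Of 4 calls for proteases and their regulators it kept 0, and of the 2 for growth hormone input 0. Low values limit Igf1 in WT, where all libraries are under 0.4 TPM.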

Other observations

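Genes of lysosomal sorting, the other role of IGF2R, had a median difference near that of all genes. Of 16 measured genes of mannose 6-phosphate sorting and lysosomal cargo, 1 rose and 0 fell, which is 6.25% beside 7.97% of all genes. The median log2 difference was 0.11 against 0.14 for all genes. By limma 4 had an unadjusted p under 0.05, 2 higher and 2 lower. The share of all genes at that unadjusted level is not given here, so this count cannot be read as an excess. Under median centring and under trimmed-mean scaling 2 genes of the list passed, not including the gene that rose here, and their direction is not given here. The alpha-mannosidase gene Man2b1 had 19.4 ± 1.196 TPM in WT and 27.9 ± 3.72 in Lef1KI (SD, n = 4 and 5), a rise of 0.49 on the log2 scale (limma adjusted p 0.0409) that held only without Lef1KI B or E (differences of 0.45 to 0.56 over the 9 fits without a library) and under neither scaling. M6pr, the other mannose 6-phosphate receptor gene, chosen after its values were seen, stood at 114 ± 12.6 TPM in Lef1KI against 116 ± 14.6 TPM in WT.

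FoxO factors are kept out of the nucleus by AKT. Of 17 measured FoxO target genes 1 rose and 1 fell, which is 11.8% beside 7.97% of all genes, with a median log2 difference of 0.034 against 0.14. Ccng2, an atypical cyclin gene, fell from 17.2 ± 1.06 to 9.98 ± 2.17 TPM, a change of −0.75 on the log2 scale (limma adjusted p 0.0175, lost without WT E, at −0.75, or WT D, at −0.72). Sod2 rose by 0.55 (limma adjusted p 0.0314), a call that held without Lef1KI A, D or E or WT A and in no other fit without a library (differences of 0.45 to 0.59), and under neither scaling.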
